A study of Homo sapiens with 9 samples.

Results

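The genes described here encode the pocket proteins and the E2F factors they bind, namely RB1, RBL1 and RBL2 and E2F1, E2F2, E2F3, E2F4, E2F5, E2F7 and E2F8. They were chosen by name and make up 10 of the 58734 genes in the count table, 3 pocket protein genes and 7 E2F genes, and all 10 passed the filter on low counts. RNA was measured by poly-A selected sequencing in HEK293T, a line derived from human embryonic kidney that carries SV40 large T antigen, in 3 groups of 3 libraries. The cells received 10 nM of a control siRNA, an siRNA against SIN3A or an siRNA against SIN3B, and RNA was taken after 36 h. All groups therefore share the T antigen and the transfection, and nothing in the labels gives replicates as separate cultures, so a p-value reflects library-to-library spread, possibly technical. In bulk RNA, fewer cells of a type and less RNA per cell cannot be told apart.

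Pocket proteins bind E2F factors and hold E2F target promoters in a repressed state until cyclin-dependent kinases phosphorylate them. RB1 binds mainly the activating factors E2F1, E2F2 and E2F3, whereas RBL1 (p107) and RBL2 (p130) bind mainly E2F4 and E2F5 and join the MuvB proteins in the DREAM complex, which represses cell-cycle genes in resting cells. E2F7 and E2F8 repress without a pocket protein. The SIN3 scaffolds carry histone deacetylases and are among the corepressors that pocket proteins and E2F4 recruit, and SV40 large T antigen binds pocket proteins and releases E2F, so the protein activity of the pathway in this line cannot be read from the transcripts.

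The promoters are shown because some of these genes are themselves E2F targets. RefSeq (GRCh38.p14) gave a promoter window, from 250 bases before to 50 bases after a transcript start, for 8 of the 10 genes, in 10 windows. The E2F motif was searched as TTTCCCGC, TTTGGCGC, TTTCGCGC or TTTGCCGC on both strands. It was found in windows of 4 of those 8 genes (RBL1, E2F1, E2F2 and E2F3) and in 3.31% of all 35116 windows. The 80 bases from 70 before to 10 after the start are given for these 4 genes, 5′ to 3′ on the gene's strand, with the motif in capitals, and GCGGCAAA and GCGGGAAA are motifs on the other strand.
RBL1, chr20:37095988-37096067, minus strand: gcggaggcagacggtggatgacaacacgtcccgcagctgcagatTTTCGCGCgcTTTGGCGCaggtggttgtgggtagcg
E2F1, chr20:33686376-33686455, minus strand: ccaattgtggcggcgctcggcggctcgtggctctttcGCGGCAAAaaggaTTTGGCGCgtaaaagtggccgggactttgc
E2F2, chr1:23531224-23531303, minus strand: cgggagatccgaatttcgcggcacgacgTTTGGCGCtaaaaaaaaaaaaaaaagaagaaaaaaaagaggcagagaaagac
E2F3, chr6:20401809-20401888, plus strand: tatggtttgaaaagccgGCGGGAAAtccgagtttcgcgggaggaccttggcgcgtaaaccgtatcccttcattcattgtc
The motif lay 16 to 53 bases before the start in these windows. No match was found in the windows of RBL2, E2F4 and E2F7, nor in that of RB1, which lies inside the gene and not at its first exon. The 4 genes that hold the motif did not move as a group, as the values below show.

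A second set of sequences is shown because siRNA seeds can act through 3′ UTRs. In an earlier analysis of these same libraries, genes with certain 7-base sequences in their 3′ UTRs had lower values in one knockdown. Neither a match nor the shares given below are therefore independent evidence. The SIN3A sequences were GGTCTAA and AGGTCTA, and the SIN3B sequences were ACAGCCT and CAGCCTT. In GENCODE 29 transcripts on GRCh38, RB1 carries GGTCTAA, E2F7 carries CAGCCTT, and E2F3 and RBL2 carry both SIN3B sequences.
RB1, chr13:48481187-48481213, plus strand: aagtcagtatGGTCTAAcactggcatg
E2F3, chr6:20491029-20491055, plus strand: gaaaacctccACAGCCTtctggatgaa
E2F7, chr12:77024101-77024127, minus strand: agacacccggCAGCCTTggagaccctg
RBL2, chr16:53490335-53490361, plus strand: tgtttagcagCAGCCTTtaatgcatct
RBL2, chr16:53490391-53490417, plus strand: ctgatgagttACAGCCTgttagtaaca
In each line 7 matching bases are in capitals. The E2F3 site also matches the overlapping CAGCCTT, whose last base is in lower case in that line. E2F1 has neither SIN3B sequence in its 3′ UTR. Among genes tested, 23.2% of the 1269 with either SIN3A sequence and 11.1% of the 12121 with neither fell in the SIN3A knockdown. In the SIN3B knockdown 19.5% of 4061 with and 10.7% of 9329 without a SIN3B sequence fell. The part of these sequences in the changes of single genes was not tested.

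Library totals were 22542798 to 27084884 counts, of which 98% or more of the nonzero values were multiples of 4, so 12 counts (3 steps of 4, 0.442 to 0.552 CPM) were taken as the lowest level that can be read. All 10 genes lay well above it, from 17.3 CPM upwards, where CPM is the count scaled to a common library size after TMM normalisation. SIN3A fell to 47.3 CPM in its own knockdown from 146 CPM in control and SIN3B to 55.1 from 96.2 CPM, and neither changed detectably in the knockdown of the other. Replicates of the SIN3A knockdown lay further apart than the others (chi-square per degree of freedom 3.77 to 7.97, against 1.46 to 2.07 in the other groups). NEFM and VIM, which are known in this line, were present in every library, and PTPRC, CD3E, CDH5, COL1A2 and DCN, which mark blood, endothelial and fibroblast cells, had no count in any.

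Between SIN3A knockdown and control, 3 of the 10 genes were called by edgeR's quasi-likelihood test (adjusted p under 0.05), where 22.7% of all 16686 genes tested were. RBL1 rose, where 12.0% of all genes did, and RB1 and E2F3 fell, where 10.8% did. Between SIN3B knockdown and control 4 genes were called, where 23.6% of all were. RB1 and E2F3 rose, against 12.0% of all genes, and RBL2 and E2F1 fell, against 11.6%. The 2 comparisons share the control libraries, so their values stand side by side, and the difference between knockdowns is tested in the direct comparison. There 4 genes were called, against 27.1% of all genes: RBL2 and E2F1 were higher in the SIN3A knockdown (14.4% of all genes) and RB1 and E2F3 were lower (12.6%). With counts this small, these shares say little about the genes as a group. The direction split of all genes in SIN3A knockdown moved from 1997 that rose and 1794 that fell to 1340 and 2298 with upper-quartile scaling.

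**Figure D1:**
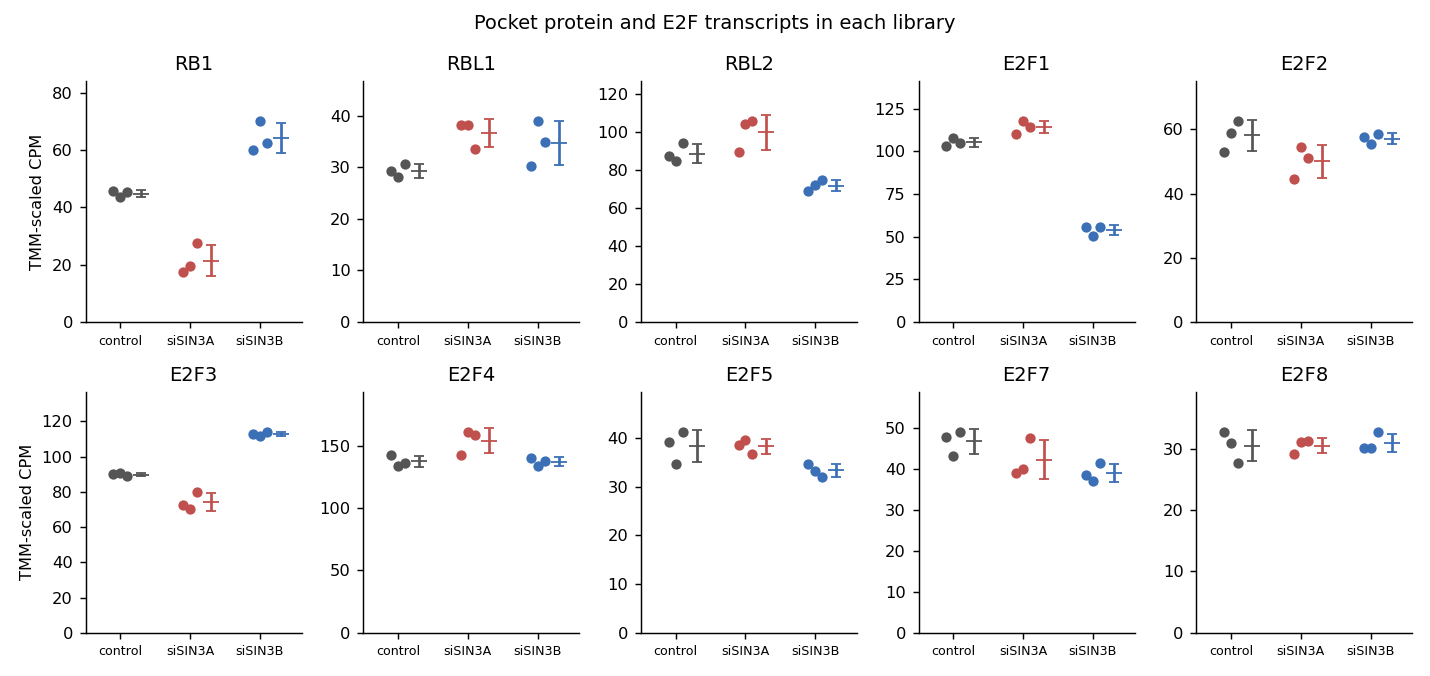
Level of each gene in each library (points, TMM-scaled CPM on a linear axis from 0) with the mean and SD of 3 libraries beside them; siSIN3A and siSIN3B are the libraries with siRNA against SIN3A and SIN3B. RB1 is lowest with SIN3A siRNA and highest with SIN3B siRNA, and the 3 SIN3B siRNA libraries are the lowest for E2F1.

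RB1, the retinoblastoma protein gene, had 45.6, 43.5 and 45.3 CPM with control siRNA, 17.3, 19.4 and 27.6 CPM with SIN3A siRNA and 60.2, 70.0 and 62.4 CPM in the SIN3B knockdown. All libraries of one group lay apart from those of the others. RB1 fell in the SIN3A knockdown to 47.9% of control (log2 fold change -1.06 ± 0.13 SE, adjusted p = 1.585e-05 by edgeR's quasi-likelihood test). In the SIN3B knockdown it rose by 0.52 ± 0.13 on the log2 scale (edgeR adjusted p = 0.005162). The knockdowns differed by -1.58 ± 0.13 on the log2 scale (edgeR adjusted p = 4.91e-08). RB1 has 37.3% GC, in the lowest of 5 equal groups of genes by GC content (30.2% to 40.8%). The median log2 fold change of that group in the SIN3B knockdown against control was 0.305. As an alternative chosen after seeing the data, GC content and exon length were both entered as offsets. With them the RB1 value in the SIN3B knockdown was 0.17 (edgeR adjusted p = 0.2322), so its call against control was lost. The fall in the SIN3A knockdown was -1.25 with the offsets and the difference between the knockdowns -1.42, and both stayed called. The parts of GC content and of length in these values were not tested apart.

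RBL1 (p107) had 29.2, 28.0 and 30.6 CPM in control, 38.1, 38.2 and 33.5 CPM in the SIN3A knockdown and 30.3, 38.9 and 34.9 CPM in the SIN3B knockdown. The SIN3A knockdown libraries all lay above control, and those of the SIN3B knockdown overlapped it. RBL1 rose in the SIN3A knockdown by 0.32 ± 0.11 (edgeR adjusted p = 0.03606), and the value in the SIN3B knockdown was 0.25 ± 0.11 (adjusted p = 0.109). The rise in the SIN3A knockdown was lost in 12 of 21 alternatives, among them leaving out any of the 3 control libraries, and the 2 knockdowns were not told apart (0.08, with a 95% interval from -0.15 to 0.30).

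RBL2 (p130) had 87.4, 84.9 and 94.3 CPM in control, 89.6, 104 and 106 CPM in the SIN3A knockdown and 68.9, 72.2 and 74.9 CPM in the SIN3B knockdown. All 3 SIN3B knockdown libraries lay below control, and those of the SIN3A knockdown overlapped it. RBL2 fell in the SIN3B knockdown by 0.30 on the log2 scale, to 81.0% of control (edgeR adjusted p = 0.01178, and 0.07664 without control replicate 3). In the SIN3A knockdown the value was 0.17 ± 0.08 (adjusted p = 0.1517), and without SIN3A replicate 1 it was 0.26 and called (adjusted p = 0.01399). The knockdowns differed by 0.47 ± 0.08 (edgeR adjusted p = 0.0002791). RBL2 shares 8.33% of its exon bases with AKTIP on the opposite strand and whether counting used strand is not given in the sources used here, so reads of the overlap cannot be told apart. AKTIP itself was 0.43 ± 0.12 higher in the SIN3A than in the SIN3B knockdown.

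**Figure D2:**
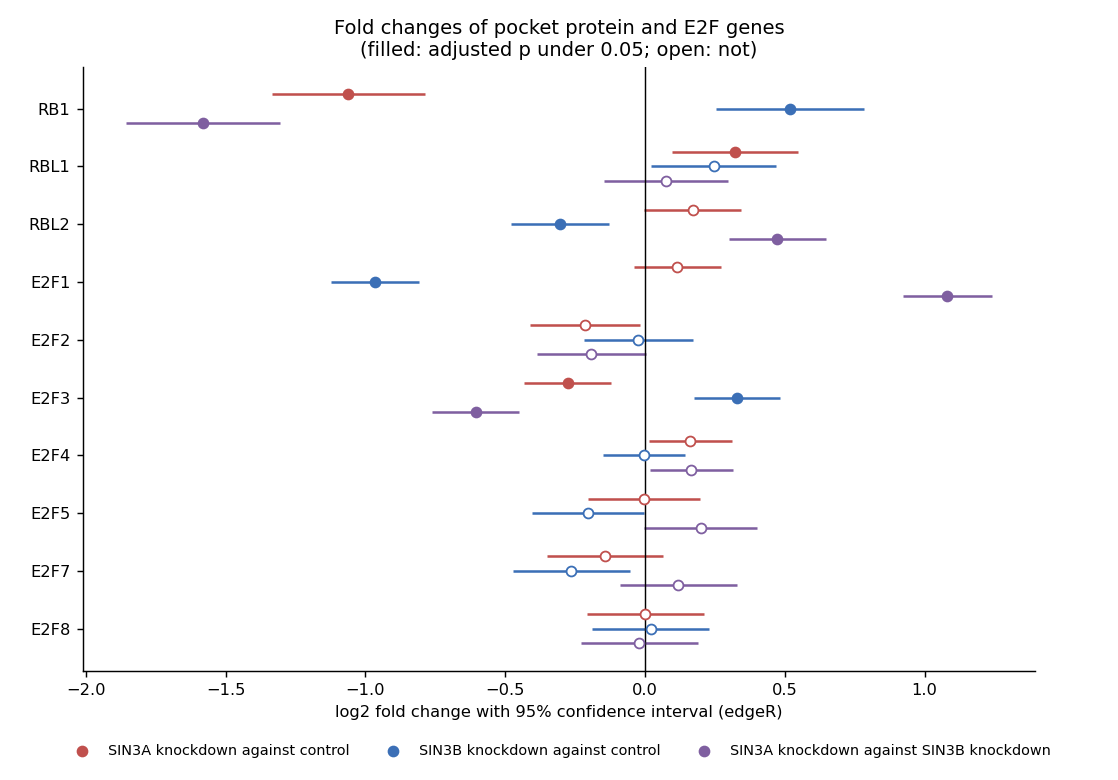
Log2 fold changes with 95% confidence intervals from edgeR for SIN3A knockdown against control, SIN3B knockdown against control and the 2 knockdowns against each other; filled points have an adjusted p under 0.05. RB1 is at -1.06 and 0.52 and E2F3 at -0.28 and 0.33 against the shared control libraries, and the E2F1 interval in the SIN3B knockdown runs from -1.12 to -0.81.

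E2F1, an activator of S-phase genes, had 103, 108 and 105 CPM in control, 110, 118 and 114 CPM in the SIN3A knockdown and 55.7, 50.6 and 55.6 CPM in the SIN3B knockdown. The 3 SIN3B knockdown libraries lay far below all others, and those of the SIN3A knockdown lay just above control, without overlap. E2F1 fell in the SIN3B knockdown to 51.2% of control (-0.97 ± 0.08, edgeR adjusted p = 5.214e-08), and in the SIN3A knockdown its value was 0.12 ± 0.07 (adjusted p = 0.2837). The knockdowns differed by 1.08 ± 0.08 (edgeR adjusted p = 5.798e-09), and none of the 21 alternatives changed these calls. E2F1 has 62.5% GC, where the median of the highest of the 5 GC groups was -0.144 in the SIN3B knockdown, and with the offsets its value was -0.81.

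E2F3, the other activator that moved, had 90.0, 90.5 and 89.0 CPM in control, 72.5, 70.3 and 79.8 CPM in the SIN3A knockdown and 113, 111 and 114 CPM in the SIN3B knockdown. The 3 groups did not overlap. E2F3 fell in the SIN3A knockdown by 0.28 on the log2 scale (SE 0.07, edgeR adjusted p = 0.01149) and rose in the SIN3B knockdown by 0.33 ± 0.07 (edgeR adjusted p = 0.003052). The difference between them was -0.60 ± 0.07 (edgeR adjusted p = 6.957e-06). The 3 calls held in all 21 alternatives. E2F3 and E2F1, which both hold an E2F motif in a promoter window, had log2 values of 0.33 and -0.97 in the SIN3B knockdown. E2F3 carries both SIN3B 7-base sequences, overlapping, in its 3′ UTR.

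E2F2, the remaining activator, had 53.1, 58.7 and 62.5 CPM in control, 44.5, 54.4 and 51.1 CPM in the SIN3A knockdown and 57.7, 55.3 and 58.4 CPM in the SIN3B knockdown. Its groups overlapped with control, and it was not called (SIN3A -0.22 with a 95% interval from -0.41 to -0.02, SIN3B -0.02 from -0.22 to 0.17). With upper-quartile scaling E2F2 was called in the SIN3A knockdown (-0.28, edgeR adjusted p = 0.03494), and with the GC and length offsets it was called between the knockdowns (-0.30 in place of -0.19, adjusted p = 0.007031). E2F4, which partners RBL1 and RBL2 in repression, had 142, 134 and 136 CPM in control, 142, 161 and 158 CPM in the SIN3A knockdown and 140, 133 and 138 CPM in the SIN3B knockdown, and was not called in either. The values of E2F4 were 0.16 with a 95% interval from 0.01 to 0.31 (adjusted p = 0.108 by edgeR) in the SIN3A knockdown and -0.0033 with an interval from -0.15 to 0.14 in the SIN3B knockdown. Without SIN3A replicate 1 E2F4 was called in the SIN3A knockdown (0.23, edgeR adjusted p = 0.009357) and between the knockdowns (0.23, adjusted p = 0.007785).

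E2F5, the other partner of RBL2, had 39.3, 34.8 and 41.3 CPM in control, 38.6, 39.6 and 36.7 CPM in the SIN3A knockdown and 34.7, 33.3 and 32.0 CPM in the SIN3B knockdown. The SIN3B knockdown lay just below control, with no overlap, and was not called (-0.20 ± 0.10, edgeR adjusted p = 0.1421), but it was called with the GC and length offsets (-0.50, adjusted p = 0.001174), as was the difference between the knockdowns (0.35 in place of 0.20, adjusted p = 0.01209). E2F5 has 38.3% GC and shares 16.35% of its exon bases with C8orf59 on the opposite strand. C8orf59 was 0.38 higher in the SIN3A knockdown and 0.11 higher, not called, in the SIN3B knockdown (edgeR adjusted p = 0.427). The repressors E2F7 and E2F8 were not called either. E2F7 had 47.8, 43.2 and 49.0 CPM in control, 39.0, 40.1 and 47.6 CPM in the SIN3A knockdown and 38.4, 37.0 and 41.3 CPM in the SIN3B knockdown, where its value was -0.26 ± 0.10 (adjusted p = 0.06345) and was called in 7 of 21 alternatives. E2F8 had 27.8 to 32.7 CPM in control, 29.1 to 31.3 CPM in the SIN3A knockdown and 30.1 to 32.7 CPM in the SIN3B knockdown, with all groups overlapping.

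**Figure D3:**
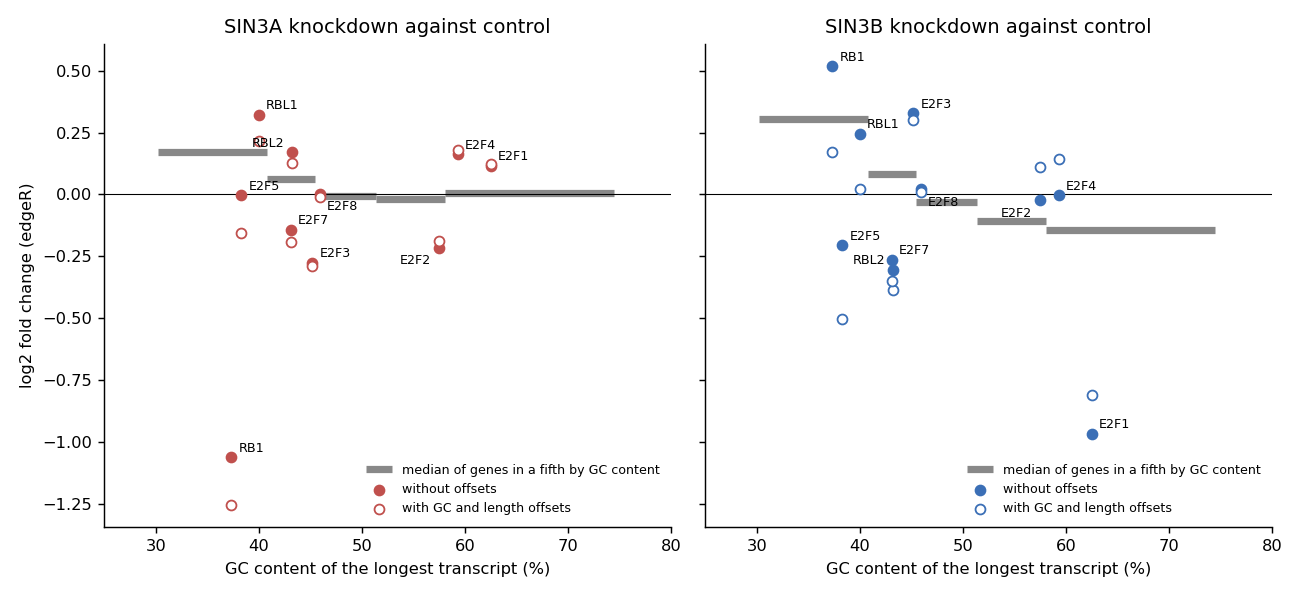
Log2 fold change of each gene against its GC content (%), filled before and open after correction by GC and length offsets, beside the median of each of 5 equal groups of genes by GC content (grey bars, genes above 2 log2 CPM). In the SIN3B knockdown the grey medians fall from 0.305 to -0.144 with rising GC, and RB1 drops from 0.52 to 0.17.

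Levels of different genes were compared only per kilobase of exon, with the exons of all GENCODE 29 transcripts of a gene merged. The lengths of the transcripts present in these cells were not measured, so the order and shares below depend on that choice. In control E2F1 (42.1 CPM per kb) and E2F4 (38.4) were highest, then E2F3 (17.4), RBL2 (12.1), E2F2 (10.7), E2F7 (7.41), E2F8 (7.37), RB1 (6.95), E2F5 (6.48) and RBL1 (4.92). The libraries of E2F7, E2F8, RB1 and E2F5 overlapped between neighbours in this order, and those of the other neighbours did not. RB1 made up 28.96% ± 0.80 of the summed pocket protein transcripts per kb in control, 14.3% ± 2.8 in the SIN3A knockdown and 38.8% ± 1.2 in the SIN3B knockdown (SD, n = 3), while the sum itself was 24.0, 23.1 and 25.6 CPM per kb. E2F1 made up 32.4%, 34.4% and 19.3% of the summed transcripts per kb of the 7 E2F genes described here, which leave out E2F6.

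**Figure D4:**
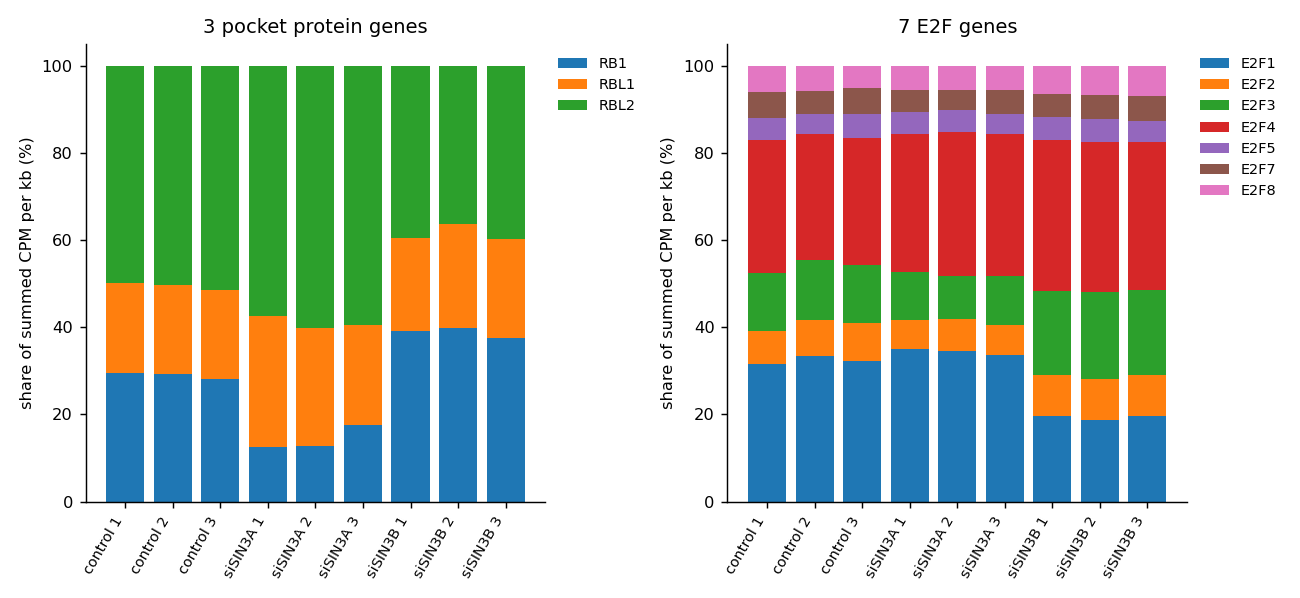
Share (%) of each gene in the summed CPM per kb of the 3 pocket protein genes (left) and the 7 E2F genes (right) in each library. The RB1 share is 12.6% to 17.5% in the SIN3A siRNA libraries and 37.6% to 39.8% in the SIN3B siRNA libraries.

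Across the 9 libraries RB1 and E2F3 had r = 0.96 and RB1 and E2F1 -0.78, as a description in which the libraries fall into the 3 groups. Among the genes whose log2 CPM followed these genes most closely were MCL1 and NAA50 for RB1 (r = 0.995 and 0.993), KBTBD7, FMR1 and ELOVL5 for E2F3 (0.989 to 0.987) and PAK4, NT5DC2 and TSPAN14 for E2F1 (0.999 to 0.994). PAK4 was 72.0 CPM in control, 82.1 CPM in the SIN3A knockdown and 24.6 CPM in the SIN3B knockdown.

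The wider pathway was described from lists chosen with earlier results of these data known. Each count of a list reads against 12.0% of all genes that rose and 10.8% that fell in the SIN3A knockdown, and 12.0% and 11.6% in the SIN3B knockdown. No list was tested as a set. With upper-quartile scaling 1340 of all genes rose and 2298 fell in the SIN3A knockdown, and 1688 and 2282 in the SIN3B knockdown. With the GC and length offsets these were 2004 and 2187, and 1695 and 1861. List counts given with either setting read against these. Of the partners, TFDP1, which dimerises with E2F, fell in the SIN3A knockdown by 0.32 on the log2 scale (SE 0.07, edgeR adjusted p = 0.0023), from 151, 153 and 158 to 120, 131 and 120 CPM. E2F6, a repressor with no pocket protein, was -0.35 ± 0.12 there (adjusted p = 0.04595, lost in 14 of 21 alternatives). TFDP2 was not called in any comparison, and TFDP3 had no count. Of 7 inhibitors of the kinases that phosphorylate pocket proteins, 5 rose and 0 fell in the SIN3A knockdown (median 0.81, against -0.0016 over all genes), and 3 rose and 1 fell in the SIN3B knockdown (median 0.14, against -0.02). CDKN1A, the p21 inhibitor, rose by 0.87 ± 0.09 in the SIN3A knockdown and fell by 0.66 on the log2 scale in the SIN3B knockdown. CDKN1B, the p27 inhibitor, rose by 0.81 ± 0.11 in the SIN3A knockdown and by 0.98 ± 0.11 in the SIN3B knockdown. CCNE1, the cyclin E1 gene and an E2F target, had 49.9, 46.0 and 52.9 CPM in control, 105, 98.3 and 97.0 CPM in the SIN3A knockdown and 26.5, 28.9 and 28.8 CPM in the SIN3B knockdown, with no overlap between groups (1.01 ± 0.09 and -0.82 ± 0.09 against control).

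Of 68 E2F target genes other than the 10, 13 rose and 3 fell in the SIN3A knockdown (median 0.08, upper-quartile scaling 11 and 5), 12 rose and 11 fell in the SIN3B knockdown (median -0.02, upper-quartile scaling 9 and 17), and 45 did not pass the test there. The split in the SIN3B knockdown thus depends on the scaling, and without SIN3B replicate 2 it was 7 and 7. RRM2, a subunit of ribonucleotide reductase, and MYBL2, a cell-cycle transcription factor, fell by 1.15 and 0.99 on the log2 scale in the SIN3B knockdown.

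Of 30 genes of G2 and M phases that the DREAM complex binds, 7 rose and 4 fell in the SIN3A knockdown (median -0.01, upper-quartile scaling 6 and 6, offsets 5 and 5), and 21 rose and 1 fell in the SIN3B knockdown (median 0.43, against -0.02 over all genes). With the GC and length offsets the SIN3B median was 0.37, with 21 that rose and 1 that fell. TTK, a spindle checkpoint kinase, rose in each knockdown against the shared control, from 49.3, 46.8 and 39.0 CPM to 88.0, 66.2 and 82.6 CPM with SIN3A siRNA and to 86.2, 113 and 109 CPM with SIN3B siRNA. PLK1, a mitotic kinase, was the gene that fell, from 227, 239 and 237 CPM to 91.9, 94.9 and 81.3 CPM in the SIN3B knockdown. A list for the MuvB core, DREAM and MYB-MuvB held LIN9, LIN37, LIN52, LIN54, RBBP4, MYBL1, MYBL2, FOXM1 and DYRK1A. Of these 9 genes 3 rose and 2 fell in the SIN3A knockdown, against 12.0% and 10.8% of all genes. In the SIN3B knockdown 4 rose and 1 fell, against 12.0% and 11.6% (upper-quartile scaling 4 and 2, offsets 3 and 2). There LIN9 rose by 0.68 ± 0.09 and LIN54 by 0.62 ± 0.13, and MYBL2 was the gene that fell. Of 18 chromatin partners of pocket proteins, 10 rose and 1 fell in the SIN3A knockdown (upper-quartile scaling 7 and 2) and 5 rose and 1 fell in the SIN3B knockdown (upper-quartile scaling 5 and 2), SIN3A and SIN3B themselves being the genes that fell. HDAC1, a histone deacetylase, rose by 0.48 ± 0.06 in the SIN3A knockdown and by 0.38 ± 0.06 in the SIN3B knockdown.

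**Figure D5:**
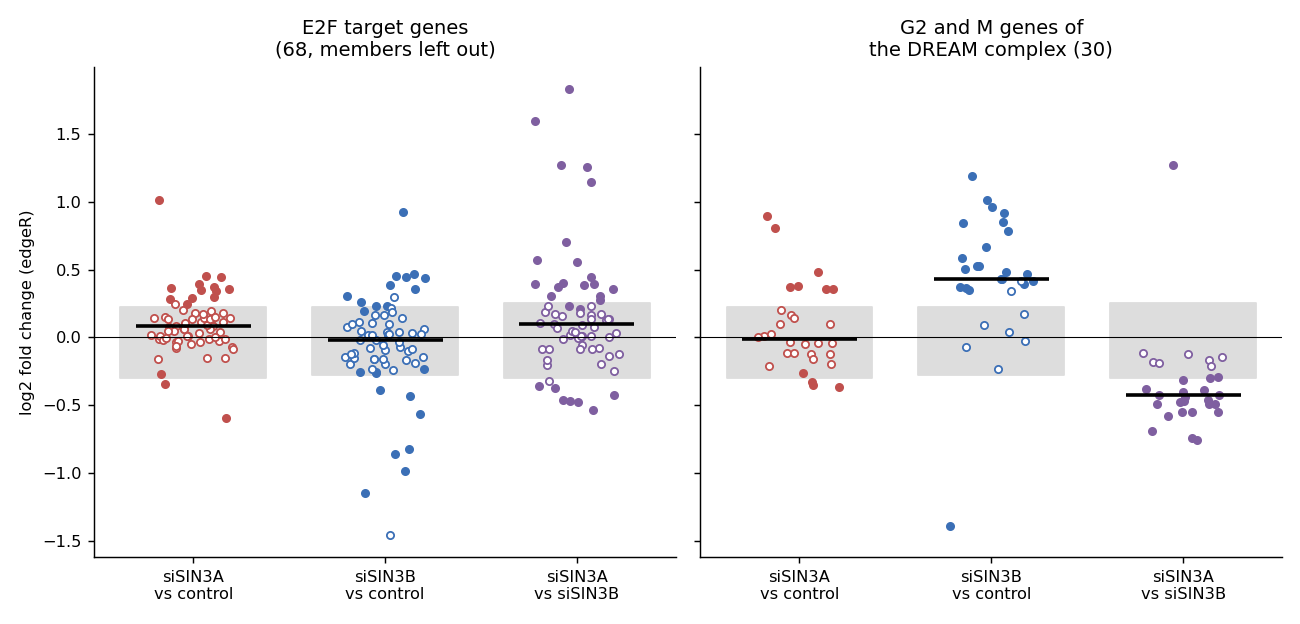
Log2 fold change of 68 E2F target genes (left) and 30 DREAM target genes of G2 and M phases (right) in the 3 comparisons, with filled points for adjusted p under 0.05, black lines for medians and grey bands from the lower to the upper quartile of all genes. The right panel's median is 0.43 in the SIN3B knockdown and the left panel's is -0.02.

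Counts of the remaining lists again read against the shares of all genes. These were 12.0% that rose and 10.8% that fell in the SIN3A knockdown, and 12.0% and 11.6% in the SIN3B knockdown. Of 11 tested cyclins and kinases that phosphorylate pocket proteins, 3 rose and 0 fell in the SIN3A knockdown and 2 rose and 2 fell in the SIN3B knockdown (upper-quartile scaling 2 and 5, offsets 1 and 4), where 2 of 11 is near the shares of all genes. Of 10 apoptosis genes that E2F1 is known to activate, 5 rose and 2 fell in the SIN3A knockdown, with PMAIP1 at -1.26 ± 0.15 and TP53INP1 at 1.17 ± 0.14, and 1 rose and 0 fell in the SIN3B knockdown. Of 9 regulators of E2F protein stability and activity, 2 rose and 1 fell in the SIN3A knockdown (upper-quartile scaling 1 and 2) and 3 rose and 1 fell in the SIN3B knockdown.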

How the data were processed

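Poly-A selected, stranded RNA libraries of HEK293T cells were grouped by the sample titles. The authors deposited counts per Ensembl gene and FPKM values. Per the submitters' processing notes, Trimmomatic 0.36, HISAT2 2.1.0, HTSeq (no version), DESeq2 1.20.0 and build GRCh38 were used, and the strand setting is not given in the sources used here. The lengths implied by the authors' deposited FPKM are not gene lengths (median 19.9% of GENCODE 29 exon length over 14435 genes, with 77 bases for RBL2 and 68 for E2F7). FPKM was therefore compared only within a gene, where it followed the counts, and a pseudocount weighs differently from gene to gene; levels per kb use counts and GENCODE 29 exon lengths.

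The quasi-likelihood test of edgeR 4.0.16 (under R 4.3.3) was run on the counts after TMM scaling, with filterByExpr at its defaults (minimum count 10, minimum total 15), in 1 fit of 9 libraries with 6 residual degrees of freedom. P-values are two-sided and adjusted by Benjamini-Hochberg over 16686 genes, with a threshold of 0.05; 31909 of 58734 genes had no count. The fit was tested on simulated data. All 58734 identifiers matched a GENCODE 29 symbol. All 10 genes are named, with every E2F partner and, of each other list, genes among the 3 lowest adjusted p that were called. Some genes that the rule names are not reported here. Members and lists were chosen with earlier results of these data known. Alternatives were RLE and upper-quartile factors, no filter, DESeq2 1.42.0, limma 3.58.1 on log2 FPKM with pseudocounts of 1 and 0.1, counts divided by 4, fits of the 6 libraries compared, a replicate block and leaving out each library. Robust dispersions and offsets for GC content and exon length were chosen after seeing the data. Counting limits cover counting error only.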

Additional observations from a re-analysis of the deposited data

Results flagged for a closer look

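The effects of the knockdowns differed by the direct comparison of SIN3A knockdown with SIN3B knockdown in 4 genes (edgeR's quasi-likelihood test, 6 libraries in 2 groups of a fit of 9). Of all genes tested, 27.1% were called there. The log2 difference was -1.58 for RB1, 0.47 for RBL2, 1.08 for E2F1 and -0.60 for E2F3. With GC and length offsets 6 of the 10 genes were called, E2F2 (-0.30) and E2F5 (0.35) besides these. In that fit 4952 of all 16680 genes were called. In each of the 4 genes no library of one knockdown overlapped the other knockdown. The same held for E2F2, E2F4 and E2F5, which were not called in the main fit, so this does not set the 4 genes apart. How many of all genes lay apart in this way was not counted, so it is no result about the 10 genes.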

How the results depend on the processing

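RB1 and E2F3 in the SIN3A knockdown and E2F1 and E2F3 in the SIN3B knockdown kept direction and call in 21 of 21 alternatives. In the SIN3B knockdown 25 of 74 E2F target genes were called. This list also holds some of the pocket protein and E2F genes described here, which the list of 68 used above leaves out. When only the 6 libraries compared were fitted, which changed the samples in the fit, 39 of the 74 were called. All genes called rose in that fit too, from 3934 to 5317. When 1 library was left out, 16 to 35 of the 74 were called, lowest without SIN3B replicate 2. All genes called were then 2601 to 4718, again lowest without SIN3B replicate 2.

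Uncalled values near 0 changed sign. E2F5 in the SIN3A knockdown was 0.0002 with DESeq2, 0.0019 and 0.0024 with limma and -0.0771 to 0.0627 with 1 library left out. E2F8 in the SIN3A knockdown was -0.0679 with upper-quartile factors, -0.0141 with counts divided by 4, -0.0016 with 6 libraries, -0.0094 with GC and length offsets, -0.0094 with these and the block, and -0.0488 to 0.055 with 1 library left out. E2F8 in the SIN3B knockdown was -0.0179 with upper-quartile factors and -0.0395 to 0.0745 with 1 left out. E2F2 in the SIN3B knockdown was 0.11 with the offsets, 0.11 with the block and offsets and -0.0858 to 0.0341 with 1 left out, and E2F4 there was 0.14, 0.14 and -0.0369 to 0.0218. Between knockdowns with 1 left out, E2F8 was -0.0407 to 0.0233 and RBL1 -0.0035 to 0.1669. The cause was not tested.

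The replicate numbers did not pair the libraries, since same-numbered libraries correlated at -0.17 to 0.07, and the best correlation was with the own number in 1 of 18 cases. With the replicate block, 3429 genes were called in the SIN3A and 3616 in the SIN3B knockdown, and of the 10 genes only the call of RBL1 in the SIN3A knockdown was lost, as was that of E2F6 among the partners (adjusted p = 0.0673). The levels of all 10 genes could be read, the lowest being 17.3 CPM against a limit of 0.442 to 0.552 CPM. Whether depth limited the calls of changes was not tested.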
